A study of Mus musculus with 6 samples.

Results

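The MYC, MAX and MXD network was followed through the 6 libraries of a mouse spermatogonia culture in which the cell cycle inhibitor gene Cdkn1c had been targeted. Its 10 members were taken by gene symbol from the 32285 genes of the count table: Myc, Mycn and Mycl, their partner Max, and the antagonists Mxd1, Mxd3, Mxd4, Mxi1, Mnt and Mga. All 10 were in the table once and passed the filter on low counts. In the p57 KO libraries, named for the protein that Cdkn1c encodes, Myc rose 2.99-fold and Mxd1 1.28-fold, while Mycn, Mxi1 and Mnt fell to between 84.8% and 86.0% of their mean control level. Per length, Mycn was the most abundant MYC family RNA in both groups.

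The cells were GS cells, mouse testis germ cells held in long-term culture with stem cell activity, and every library was from cells with Cdkn1c floxed on both alleles. The 3 p57 KO libraries (p57 flox/flox-Cre) came from cells given Cre recombinase by adenovirus, and the 3 control libraries (p57 flox/flox) from cells labelled without Cre. Per the labels' protocols, cells were separated with trypsin and purified on a Sephadex column, and their RNA was taken 2 days after infection. The labels give the mice an age of 3 days in one place and 10 days in another, and differ in the same way on the strain (BDF1, or C57BL/6 and 129) and on which stranded mRNA kit was used. The sources used here do not say whether control cells received a virus without Cre, which part of Cdkn1c is removed, or whether replicates were separate cultures. P-values therefore cover the spread among these 6 libraries, which may be technical only.

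MYC proteins are transcription factors of the basic helix-loop-helix leucine zipper class. They bind DNA only as dimers with MAX, at the E-box, and switch on genes of ribosome production, metabolism and cell division. MXD proteins, MXI1, MNT and MGA also pair with MAX and bind the same sites, where MXD, MXI1 and MNT bring in the SIN3 and histone deacetylase repressors. Myc and Mycn are known to sustain the self-renewal of mouse spermatogonial stem cells in culture, and MGA is known in mouse embryonic stem cells as the DNA-binding scaffold of a Polycomb complex, PRC1.6, which keeps germ cell genes silent.

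The promoters of the network genes were searched for the E-box that the network's own proteins bind (CACGTG, which reads the same on both strands) and for the core letters of E2F sites (TTTGGCGC or TTTCCCGC, on either strand). No promoter window was at hand for Myc, which was not searched. RefSeq windows on GRCm38.p6, from 250 bases before to 50 after a start site, were at hand for the other 9 of the 10 genes. Of these, Max, Mnt and Mxd4 held an E-box, against 8.09% of all genes with such a window, and Mycn held 2 E2F cores, against 1.80% of all genes. The 4 windows with a match are shown because they carry the letters by which network and cell cycle factors are known to read promoters. Capitals mark the motif, and each sequence is on the gene's own strand.
Max (chr12:76962199-76962498, minus strand): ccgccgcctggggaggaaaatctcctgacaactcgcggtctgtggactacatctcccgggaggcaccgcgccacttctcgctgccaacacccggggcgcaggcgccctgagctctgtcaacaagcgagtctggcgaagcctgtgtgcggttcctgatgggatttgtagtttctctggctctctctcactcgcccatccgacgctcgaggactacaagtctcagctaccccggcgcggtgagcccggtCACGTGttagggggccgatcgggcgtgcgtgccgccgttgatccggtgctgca
Mnt (chr11:74830674-74830973, plus strand): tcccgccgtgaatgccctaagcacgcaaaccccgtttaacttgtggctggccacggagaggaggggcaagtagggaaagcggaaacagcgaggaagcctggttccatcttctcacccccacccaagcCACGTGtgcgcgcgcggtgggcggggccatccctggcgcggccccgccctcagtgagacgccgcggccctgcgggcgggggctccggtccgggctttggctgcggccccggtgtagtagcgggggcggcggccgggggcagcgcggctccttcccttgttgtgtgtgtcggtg
Mxd4 (chr5:34187661-34187960, minus strand): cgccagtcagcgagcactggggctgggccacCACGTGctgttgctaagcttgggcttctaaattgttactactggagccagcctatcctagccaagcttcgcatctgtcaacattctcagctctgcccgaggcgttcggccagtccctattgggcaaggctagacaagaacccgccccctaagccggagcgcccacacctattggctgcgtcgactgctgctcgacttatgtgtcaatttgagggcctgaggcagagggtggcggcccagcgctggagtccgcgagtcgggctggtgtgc
Mycn (chr12:12941787-12942086, minus strand): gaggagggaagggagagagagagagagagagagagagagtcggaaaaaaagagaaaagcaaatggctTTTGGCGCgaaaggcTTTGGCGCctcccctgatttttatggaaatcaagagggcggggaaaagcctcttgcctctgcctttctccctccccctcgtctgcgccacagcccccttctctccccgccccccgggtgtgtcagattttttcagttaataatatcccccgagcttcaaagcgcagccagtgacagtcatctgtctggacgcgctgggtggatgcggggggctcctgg
The E-box began 3 bases before the start site in Max, 123 before it in Mnt and 219 before it in Mxd4. The E2F cores of Mycn began 183 and 168 bases before the start site. A match describes letters in the window and does not show that a factor binds there.

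Levels are given as CPM, counts scaled to library size with TMM, a correction for library composition. Differences are log2 fold changes, p57 KO against control, with a standard error (SE), from edgeR's quasi-likelihood test over 14814 genes. A gene counted as called, and is said to have risen or fallen, where its Benjamini-Hochberg adjusted p was under 0.05. Of all genes tested, 23.3% were called, 11.6% higher and 11.6% lower. Of the 10 network members 5 were called, 2 higher and 3 lower, and their median log2 fold change was -0.09, against -0.0019 over all genes tested. The values of every p57 KO library lay above all control values for 2 members, as for 19.5% of all genes tested, and below all control values for 5 members, as for 19.7% of all genes tested.

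**Figure D1:**
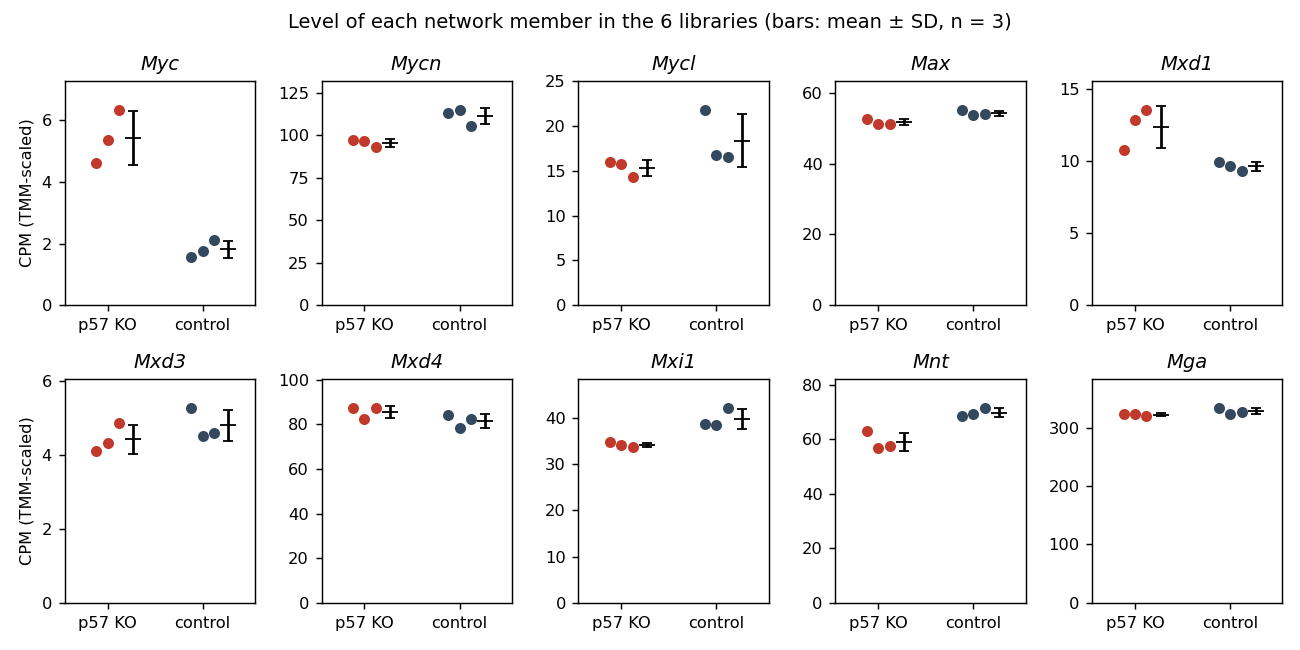
CPM of the 10 network members (vertical axes, each from 0) in the 3 p57 KO and 3 control libraries; points are libraries in the order of their replicate numbers, and black bars are mean ± SD. Myc and Mxd1 lie higher in every p57 KO library, Mycn, Mycl, Max, Mxi1 and Mnt lower, and Mxd3, Mxd4 and Mga overlap.

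The libraries themselves were of similar depth, with 15662833 to 17893671 counts each. Cdkn1c RNA was 8.89 ± 0.486 CPM in p57 KO and 20.7 ± 0.782 CPM in control (SD, n = 3 each), lower in every p57 KO library (log2 fold change -1.22, edgeR adjusted p = 4.07e-09). Germ cell markers such as Ddx4, Dazl and Zbtb16 were abundant in all libraries, with a summed level of 3840 to 4067 CPM over 12 markers in p57 KO and 4470 to 4596 CPM in control, and 10 of the 12 fell. The 24 fibroblast and feeder cell markers summed to 1532 to 3031 CPM in p57 KO and 967 to 1241 CPM in control. Of them 6 rose and the others did not pass the test, their median log2 fold change was 1.41, and none was at 0. In bulk RNA, fewer cells of a type and less RNA per cell cannot be told apart. Of 7 Sertoli cell, 5 Leydig cell and 5 macrophage markers, 4 in each list were too low to be tested, among them Amh, Cyp17a1 and Ptprc, and Hsd3b1 was at 0 in all libraries. The macrophage list summed to 16.3 to 18.9 CPM in p57 KO and 12.4 to 13.6 CPM in control, nearly all of it Cd68, which rose. Of 5 endothelial markers 1 rose and 2 fell, with sums of 80.3 to 89.4 CPM in p57 KO and 84.4 to 89.9 CPM in control.

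Of the MYC genes, the one with the lowest level differed most. Myc, on the plus strand of chromosome 15 from 61985391 to 61990374 (mm10), encodes the MYC protein that many growth signals induce. It had 4.61, 5.36 and 6.33 CPM in p57 KO replicates 1, 2 and 3, from 73, 88 and 113 reads, against 1.58, 1.77 and 2.11 CPM in control replicates 1, 2 and 3, from 26, 30 and 33 reads. The groups were far apart, and the lowest p57 KO library was above the highest control library. The mean was 5.43 ± 0.863 CPM in p57 KO and 1.82 ± 0.270 CPM in control (SD, n = 3 each), a log2 fold change of 1.58 (± 0.19 SE, with an adjusted p of 4.45e-06 in edgeR) with a 95% interval of 1.18 to 1.98.

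The fibroblast score, the mean log2 CPM of 23 of the fibroblast and feeder cell markers, was 4.47, 5.02 and 5.54 in p57 KO replicates 1, 2 and 3, and 3.57, 4.12 and 3.60 in control replicates 1, 2 and 3. Among the p57 KO libraries Myc and the score were both lowest in replicate 1 and highest in replicate 3. In control the score was highest in replicate 2 and Myc in replicate 3. The control counts of Myc, 26, 30 and 33 reads in replicates 1, 2 and 3, are too close to order those libraries. These orders were not tested. With the score as a covariate in the edgeR model, 2.21% of all genes were called, and Myc had a log2 fold change of 1.11 (SE 0.34, adjusted p = 0.0708). Under the 13 other alternatives Myc kept its call, at 1.46 to 1.70 where a library was left out. Every p57 KO score was above every control score, so the model with the score cannot fully separate score from group. The part of fibroblast RNA in the rise of Myc was not tested.

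Mycn, at 12936093 to 12941914 on the minus strand of chromosome 12, encodes N-MYC, whose RNA is known to be induced by the niche factor GDNF in spermatogonial stem cells. It had 97.3, 96.8 and 92.9 CPM in p57 KO replicates 1, 2 and 3, against 113, 115 and 106 CPM in control replicates 1, 2 and 3. The p57 KO values were all lower and close to each other. The mean was 95.7 ± 2.40 CPM in p57 KO and 111 ± 4.87 CPM in control (SD, n = 3 each), and the fall of 0.22 on the log2 scale (SE 0.04) passed the test with an edgeR adjusted p of 0.000301. It did not pass a test against a fold of 1.2 (adjusted p = 1), nor in the model with the fibroblast score, where its log2 fold change was -0.20 (adjusted p = 0.188).

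Mycl, on chromosome 4, encodes L-MYC, the least studied of the family. It had 15.97, 15.8 and 14.3 CPM in p57 KO replicates 1, 2 and 3, against 21.8, 16.8 and 16.6 CPM in control replicates 1, 2 and 3. The groups did not overlap, but control replicate 1 stood above the other libraries and the other control values were near those of p57 KO. The log2 fold change of -0.26 (SE 0.10, 95% interval -0.47 to -0.05) missed the threshold (edgeR adjusted p = 0.0679), as it did at -0.12 without control replicate 1 (adjusted p = 0.419). It passed with no filter on low counts (-0.26, adjusted p = 0.0214) and without control replicate 3 (-0.33, adjusted p = 0.0473), and was 0.0014 with the fibroblast score as a covariate (adjusted p = 0.999).

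Set per length, Mycn made up most of the family's RNA in both groups. The summed level of Myc, Mycn and Mycl, in CPM per kb of annotated exon, was 35.2, 35.3 and 34.1 in p57 KO replicates 1, 2 and 3, and 40.4, 39.6 and 36.9 in control replicates 1, 2 and 3. Every p57 KO library had less MYC family RNA than every control library, at 89.4% of the control mean. Germ cell markers fell in 10 of 12 cases, with a median log2 fold change of -0.25, against -0.22 for Mycn. Their part in the lower family sum, and in the falls of Mycn, Mnt and Mxi1, was not tested. Mycn was 83.3% ± 0.598 of this sum in p57 KO and 86.6% ± 1.33 in control (SD, n = 3 each). Myc was 5.75% ± 1.02 of it in p57 KO and 1.73% ± 0.340 in control, and Mycl a mean of 10.9% in p57 KO and 11.7% in control. On the CPM scale the mean of Myc was 3.61 higher in p57 KO than in control, whereas that of Mycn was lower by 15.5 (p57 KO minus control, -15.5 CPM). These shares are a description with no test, since they combine members.

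**Figure D2:**
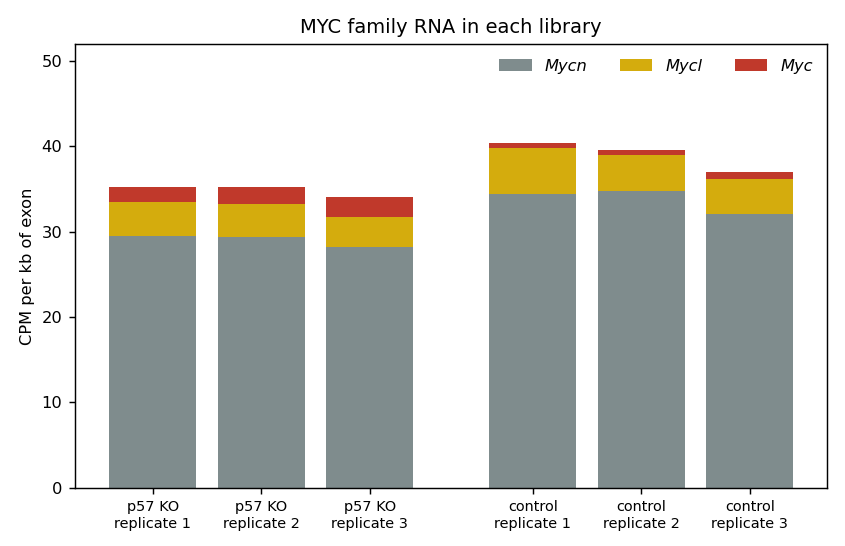
Summed level of Mycn, Mycl and Myc (stacked bars, CPM per kb of exon, vertical axis from 0) in each of the 3 p57 KO and 3 control libraries. The Myc segment is thicker in the p57 KO libraries, at 4.82% to 6.84% of the sum against 1.44% to 2.10% in control, while the whole bar is shorter, at 34.1 to 35.3 against 36.9 to 40.4.

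Max, the shared partner, did not pass the test. Its gene spans 76937269 to 76962201 of chromosome 12, on the minus strand. Its RefSeq window, set on a start site outside that span, held the E-box closest to a start site among the windows above. Max had 52.6, 51.1 and 51.2 CPM in p57 KO replicates 1, 2 and 3, against 55.1, 53.8 and 53.9 CPM in control replicates 1, 2 and 3. All p57 KO values were below the control values, by a narrow margin. The log2 fold change of -0.07 (± 0.05 SE, with an adjusted p of 0.273 in edgeR) did not pass, with a 95% interval of -0.17 to 0.02.

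Set per length, the antagonists Mxd1, Mxd3, Mxd4, Mxi1 and Mnt summed to 31.5 ± 0.790 CPM per kb of exon in p57 KO and 33.9 ± 0.749 in control (SD, n = 3 each), a description with no test. They parted in direction. Mxd1, on chromosome 6, encodes MAD1, which in many tissues appears as cells stop dividing and differentiate. It had 10.8, 12.8 and 13.6 CPM in p57 KO replicates 1, 2 and 3, against 9.95, 9.71 and 9.33 CPM in control replicates 1, 2 and 3. Replicate 1 of p57 KO was close to control and replicates 2 and 3 clearly above it. Mxd1 rose by a log2 fold change of 0.36 (± 0.11 SE, with an adjusted p of 0.0178 in edgeR). The call held in 7 of 14 alternatives: it was lost in DESeq2 (0.36, adjusted p = 0.0830), against a fold of 1.2 (adjusted p = 0.587), with the fibroblast score as a covariate (0.06, adjusted p = 0.946), and without p57 KO replicate 2 (0.33, 0.0785) or 3 (0.29, 0.0971) or control replicate 2 (0.36, 0.0541) or 3 (0.33, 0.0769).

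Mnt, on chromosome 11, encodes the MAX partner that is present in dividing and resting cells alike and is regarded as the standing counterweight to MYC. It had 63.0, 56.98 and 57.5 CPM in p57 KO replicates 1, 2 and 3, against 68.5, 69.3 and 71.5 CPM in control replicates 1, 2 and 3. All p57 KO libraries were lower, replicate 1 the least. Mnt fell by 0.24 on the log2 scale (± 0.05 SE, with an adjusted p of 0.000679 in edgeR). Against a fold of 1.2 its adjusted p was 1, while in the model with the fibroblast score it had -0.12 (adjusted p = 0.631).

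Mxi1, on chromosome 19, encodes a MAX partner of the MXD kind. It had 34.7, 34.0 and 33.7 CPM in p57 KO replicates 1, 2 and 3, against 38.6, 38.4 and 42.1 CPM in control replicates 1, 2 and 3. The p57 KO values were tightly grouped below the control values. Mxi1 fell by 0.22 on the log2 scale (± 0.06 SE, with an adjusted p of 0.00809 in edgeR). The call was lost without control replicate 3, the highest library (-0.18, adjusted p = 0.0639), against a fold of 1.2 (adjusted p = 1) and in the model with the fibroblast score (-0.14, adjusted p = 0.677). Exons of Mxi1 overlap Gm10197 on the other strand by 194 bases, and the sources used here do not say whether the counting used the strand.

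Mxd4 and Mxd3 overlapped between the groups. Mxd4, the most abundant antagonist of the MXD kind per length, ranged from 82.5 to 87.4 CPM in p57 KO and from 78.2 to 84.4 CPM in control, a log2 fold change of 0.07 (± 0.04 SE, with an adjusted p of 0.230 in edgeR). Mxd3, which is known to be expressed in dividing cells, ranged from 4.10 to 4.87 CPM in p57 KO and from 4.53 to 5.28 CPM in control. Its log2 fold change was -0.11 (± 0.15 SE, with an adjusted p of 0.647 in edgeR), with a 95% interval of -0.43 to 0.21, from 65 to 87 reads per library in p57 KO and 72 to 87 in control. Exons of Mxd4 overlap Gm42846 by 514 bases and those of Mxd3 overlap Prelid1 by 105 bases, both on the other strand.

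Mga, the largest gene of the network, had 323, 324 and 319 CPM in p57 KO replicates 1, 2 and 3, against 334, 323 and 327 CPM in control replicates 1, 2 and 3. The groups overlapped. Its log2 fold change of -0.03 (± 0.03 SE, with an adjusted p of 0.527 in edgeR) had the narrowest interval of the 10 members, -0.08 to 0.03.

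**Figure D3:**
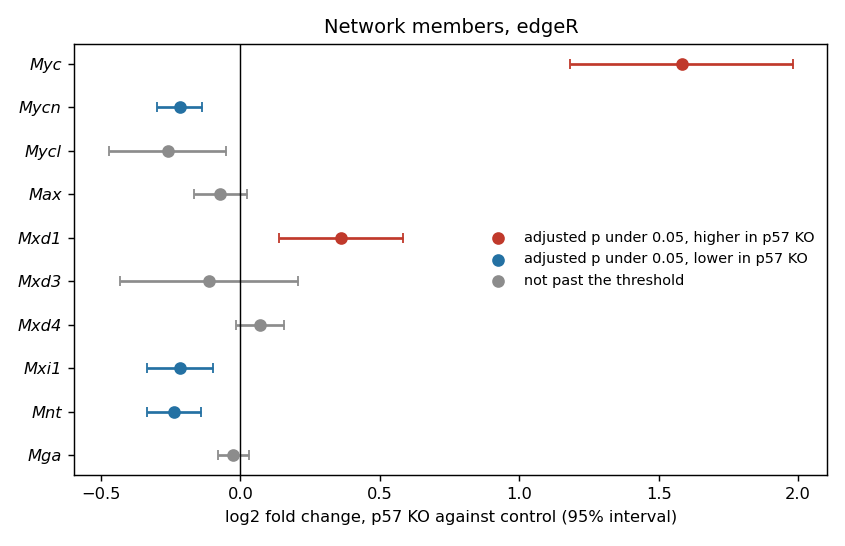
Log2 fold change of each member, p57 KO against control (horizontal axis, points with 95% intervals from edgeR); red and blue mark members called higher and lower, grey those not past the threshold. Myc stands alone at 1.58, and the other 9 members lie between -0.26 and 0.36.

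The order of the members by level per length was similar in both groups. In CPM per kb of exon, Mycn led with 29.0 ± 0.728 in p57 KO and 33.8 ± 1.48 in control (SD, n = 3 each), before Mga with 21.004 ± 0.161 in p57 KO and 21.4 ± 0.337 in control. Max with 14.4 ± 0.237 and Mnt with 12.8 ± 0.721 followed in p57 KO, and were equal within their spread in control, at 15.1 ± 0.191 and 15.1 ± 0.339. Mxd4, Mxi1 and Mycl came next in both groups. At the low end, Myc, Mxd3 and Mxd1 overlapped in p57 KO, with 2.00 ± 0.318, 1.87 ± 0.168 and 1.75 ± 0.203. In control the same 3 genes did not overlap, with 0.669 ± 0.0993 for Myc, 2.03 ± 0.174 for Mxd3 and 1.37 ± 0.0440 for Mxd1. With the longest annotated transcript as length, Myc had the lowest mean in both groups. In p57 KO it still overlapped Mxd3 and Mxd1, with 2.32 ± 0.369 against 2.54 ± 0.228 and 2.66 ± 0.307. Max came second on this scale, and 6 members changed rank in p57 KO and 4 in control.

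Next to Myc lies Pvt1, a long noncoding RNA gene that shares regulatory elements with Myc, 47.6 kb away on the same strand. Pvt1 had 0.884, 2.13 and 1.85 CPM in p57 KO replicates 1, 2 and 3, from 14, 35 and 33 reads, against 0.546, 0.706 and 0.320 CPM in control replicates 1, 2 and 3, from 9, 12 and 5 reads. The groups did not overlap, although replicate 1 of p57 KO was near the control values. Pvt1 rose by a log2 fold change of 1.61 (± 0.38 SE, with an adjusted p of 0.00355 in edgeR), a value from few reads. It passed the filter on low counts through its p57 KO libraries. On the other side of Myc the nearest tested gene, Lratd2, was 1132 kb away and had a log2 fold change of -0.10 (± 0.09 SE, with an adjusted p of 0.483 in edgeR). Beside Mycn, Fam49a at 555 kb fell by 0.21 (± 0.06 SE, with an adjusted p of 0.0167 in edgeR), and the gene model Gm35208 at 45.4 kb had -0.76 (± 0.34 SE, with an adjusted p of 0.113 in edgeR).

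Genes with a profile like that of Myc were sought by the smallest root mean square difference over the 6 libraries, each log2 profile set to 0 at its control mean, among 12591 genes with a mean of at least 2 CPM over all 6 libraries. The nearest were Tagln, which encodes an actin-binding protein of smooth muscle and fibroblasts (difference 0.134, log2 fold change 1.44), Fosb, an immediate early transcription factor gene (0.154, log2 fold change 1.58), and Msx1, a homeobox gene (0.154, log2 fold change 1.42). Msx1 had a mean of 3.56 CPM in p57 KO and 1.32 CPM in control, so that it met the minimum through its p57 KO values. Tagln is also one of the fibroblast and feeder cell markers. For Mycn the nearest were Zcchc3 (0.0220), Zfp60 (0.0227) and Lrrc1 (0.0230), with log2 fold changes of -0.22, -0.20 and -0.22.

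The MLX branch, a parallel set of factors in which MLX takes the place of MAX and senses glucose-derived metabolites with MondoA and ChREBP, had calls in both directions. Of 5 genes tested, 1 rose and 1 fell, 40.0% of the list against 23.3% of all genes tested. The median log2 fold change was 0.02. Mlxipl, the gene of ChREBP, rose by 0.27 (± 0.07 SE, with an adjusted p of 0.00852 in edgeR) and Mlxip, the gene of MondoA, fell by 0.12 (± 0.04 SE, with an adjusted p of 0.0197 in edgeR). Txnip and Arrdc4, the textbook targets of this branch, had 0.07 and 0.02 and did not pass. The fall of Mlxip was not called in DESeq2, nor without p57 KO replicate 2, control replicate 1 or control replicate 3. Neither Mlxip nor Mlxipl was called against a fold of 1.2 or in the model with the fibroblast score.

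Of 14 cofactors through which MYC acts, 2 rose and 1 fell, 21.4% of the list and near the 23.3% of all genes, with a median log2 fold change of -0.02. Hcfc1, a chromatin adaptor that MYC binds, had -0.11, Cdk9, the kinase that releases paused polymerase, had 0.10, and Actl6a had 0.11, with edgeR adjusted p of 0.00466, 0.0176 and 0.0276. Trrap, the scaffold of MYC's histone acetyltransferases, had -0.08 and did not pass (adjusted p = 0.0561). The count of cofactors that rose was 1 in DESeq2 and 1 without p57 KO replicate 2 or 3 or control replicate 1 or 2, and edgeR called none higher without control replicate 3, where 2 had an unadjusted p under 0.05. The count that fell was 3 without p57 KO replicate 1, a fit that called 12.5% of all genes lower, and 2 without control replicate 2. Neither the test against a fold of 1.2 nor the model with the fibroblast score called any cofactor.

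Of 16 genes that set the stability of MYC proteins, 1 rose and 3 fell, 25.0% of the list and near the 23.3% of all genes, with a median of -0.0076. Usp28, which removes ubiquitin from MYC, had -0.17, Ppp2r5a, a regulatory subunit of the phosphatase PP2A, -0.14, Gsk3b, the kinase that marks MYC for decay, -0.09, and Stub1, a ubiquitin ligase, 0.13. Their edgeR adjusted p were 0.000727, 0.0102, 0.0335 and 0.0122. Fbxw7, the ubiquitin ligase adaptor that reads that mark (chosen after its value was seen), had -0.01 (edgeR adjusted p = 0.935). The count of this list that rose was 2 without p57 KO replicate 1 or control replicate 1 or 2. Without p57 KO replicate 2 or control replicate 3 edgeR called none higher, and 2 and 4 had an unadjusted p under 0.05. The test against a fold of 1.2 called none of the list, and the model with the fibroblast score called 1 higher and none lower.

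Of 16 SIN3 and histone deacetylase genes, on which MXD, MXI1 and MNT rely, 1 was called. That is 6.25% of the list, against 23.3% of all genes tested, and the median log2 fold change was 0.04. The call was Rbbp7, which fell by 0.09 (± 0.03 SE, with an adjusted p of 0.0337 in edgeR). That call was absent in DESeq2, in limma-voom and in 4 of the 6 fits that left out a library (without p57 KO replicate 3 or control replicates 1, 2 or 3). It was also absent against a fold of 1.2 and in the model with the fibroblast score. Sap18, Ing1 and Arid4a, next in order of p, had 0.08, -0.13 and 0.15 and did not pass. Of 12 partners of MGA in PRC1.6, 2 were called, 16.7% of the list against 23.3% of all genes tested. Both were lower, and the median of the list was -0.02. Yaf2, a bridging subunit, fell to 25.4 ± 1.01 CPM in p57 KO, against 30.3 ± 1.36 CPM in control (SD, n = 3 each; log2 fold change -0.25, SE 0.06, edgeR adjusted p = 0.00689). E2f6, the repressive E2F factor of the complex, had -0.13 (± 0.03 SE, with an adjusted p of 0.00773 in edgeR), while Cbx3 and Pcgf6 had -0.07 each and did not pass. No partner of MGA was called against a fold of 1.2 or in the model with the fibroblast score.

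Germ cell genes that PRC1.6 holds silent in mouse embryonic stem cells were all expressed in these germ cells, and 16 were tested. Of them 6 fell and 1 rose, 43.8% of the list against 23.3% of all genes tested. The median log2 fold change was -0.06. Stag3, a meiotic cohesin subunit, had 304 ± 5.14 CPM in p57 KO and 339 ± 8.11 CPM in control (SD, n = 3 each), a log2 fold change of -0.16 (± 0.03 SE, with an adjusted p of 0.000263 in edgeR). Slc25a31, a testis adenine nucleotide carrier, and Taf7l, a germ cell subunit of a general transcription factor, had -0.13 and -0.11. Smc1b, another meiotic cohesin subunit, had 0.13. The germ cell markers given above fell in 10 of 12 cases, and their part in this result was not tested. Of the list, 3 members fell in DESeq2 and 3 without control replicate 1, and neither the edgeR model with the fibroblast score nor the test against a fold of 1.2 called any. The count that rose was 2 without p57 KO replicate 1 or 3, and edgeR called none higher without control replicate 3, where 2 had an unadjusted p under 0.05. Tuba3a and Tuba3b in this list are near-identical copies whose counts are uncertain.

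**Figure D4:**
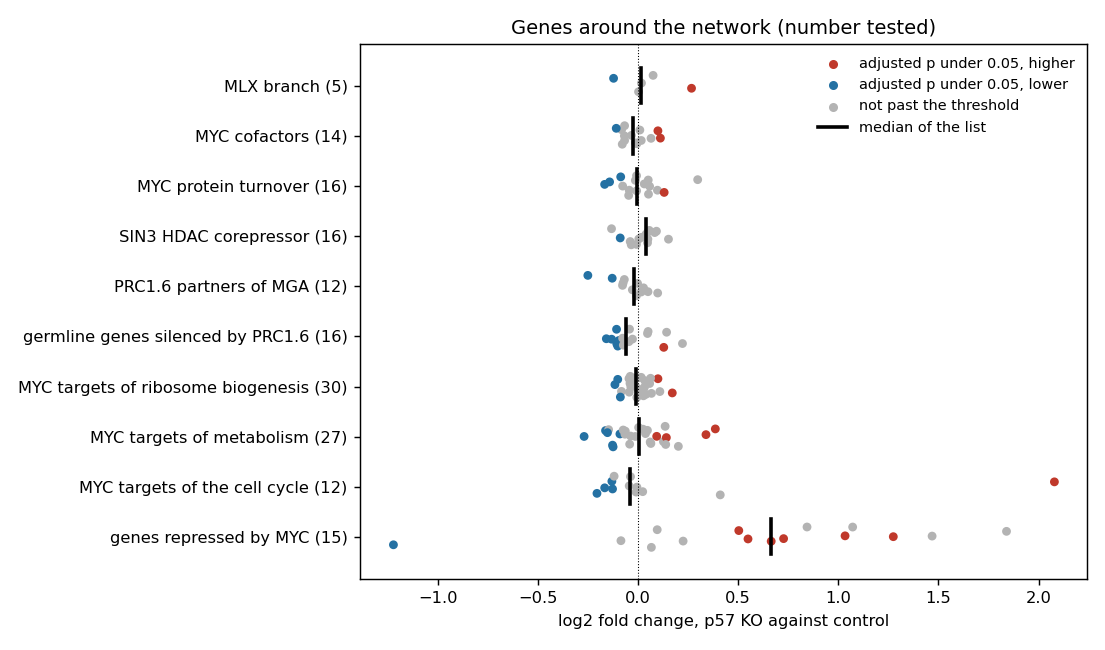
Log2 fold change, p57 KO against control (horizontal axis), of the genes around the network; each point is a gene, red and blue were called higher and lower, grey did not pass, and the black bar is the median of the list. The medians of 9 lists lie between -0.06 and 0.04, and that of the genes repressed by MYC is 0.66.

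Genes that MYC is known to switch on were called in both directions. Of 30 ribosome biogenesis targets, 2 rose and 3 fell, 16.7% of the list against 23.3% of all genes tested, with a median log2 fold change of -0.01. Utp20, a factor of small subunit assembly, had 432 ± 7.18 CPM in p57 KO and 384 ± 2.90 CPM in control (SD, n = 3 each), a log2 fold change of 0.17 (± 0.03 SE, with an adjusted p of 6.85e-05 in edgeR). Nop56, a core protein of nucleolar ribonucleoproteins, had 0.10, Polr1a, the large subunit of RNA polymerase I, -0.12, and Noc4l -0.10, all past the test. Nucleolin (Ncl) and nucleophosmin (Npm1), named after their values were seen, had 0.07 and 0.03 and did not pass. DESeq2 and limma-voom called the same number higher and none lower, as did edgeR without p57 KO replicate 3. The count that fell was 1 without p57 KO replicate 2 or control replicate 1 or 2, and 0 without control replicate 3. The count that rose was 1 without control replicate 1 or 3. It was also 1 in the model with the fibroblast score, and 0 against a fold of 1.2.

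Of 27 metabolic targets of MYC, 4 rose and 6 fell, 37.0% of the list against 23.3% of all genes tested. The median log2 fold change was 0.0026. Slc2a1, the gene of the glucose transporter GLUT1, fell to 62.5 ± 2.48 CPM in p57 KO, against 75.4 ± 3.11 CPM in control (SD, n = 3 each; log2 fold change -0.27, SE 0.04, edgeR adjusted p = 0.000164). Gart, a purine synthesis enzyme gene, had -0.16, and Tfrc, the gene of the transferrin receptor, -0.15. Prps2, which makes the ribose precursor of nucleotides, rose by 0.39. Among other members called, and named after their values were seen, Ldha, the gene of lactate dehydrogenase A, rose by 0.34, and the purine genes Ppat and Paics had -0.13 and -0.09. Odc1, a classic MYC target that makes polyamines, had 0.13 and did not pass (edgeR adjusted p = 0.0550). Without p57 KO replicate 2 or control replicate 1 the count that rose was 2, and without control replicate 3 it was 1. In the model with the fibroblast score 1 of the list was called, and it was lower.

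Of 12 cell cycle targets, 1 rose and 4 fell, 41.7% of the list against 23.3% of all genes tested. The median log2 fold change was -0.04. Cdk4, the kinase of the G1 phase, had 240 ± 4.24 CPM in p57 KO and 269 ± 5.56 CPM in control (SD, n = 3 each), a log2 fold change of -0.17 (± 0.03 SE, with an adjusted p of 0.000194 in edgeR). E2f1 and Ccnd2, which drive entry into S phase, had -0.21 and -0.13. Id2, an inhibitor of helix-loop-helix factors, had 2.52 ± 0.138 CPM in p57 KO and 0.584 ± 0.368 CPM in control (SD, n = 3 each), and rose by 2.08 on the log2 scale (± 0.32 SE, with an adjusted p of 7.86e-05 in edgeR), from 39 to 45 reads per library in p57 KO and 5 to 17 in control. Id2 passed the filter on low counts through its p57 KO libraries. The count that rose was 2 in DESeq2, in limma-voom and without p57 KO replicate 1. In the edgeR model with the fibroblast score no gene of the list was called, Id2 included, and 1 was higher and 2 lower at an unadjusted p under 0.05.

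Genes that MYC is known to repress had the highest list median. Of 15 tested, 6 rose and 1 fell, 46.7% of the list against 23.3% of all genes tested. The median log2 fold change was 0.66. The 1 that fell is Cdkn1c, the targeted gene, which is counted in that share. The list, like the others, was chosen with earlier results of these data known. Hexim1, an inhibitor of the elongation kinase CDK9, had 67.7 ± 2.97 CPM in p57 KO and 42.7 ± 2.28 CPM in control (SD, n = 3 each), a log2 fold change of 0.66 (± 0.05 SE, with an adjusted p of 7.57e-09 in edgeR). Gas1, a growth arrest gene, rose by 1.03 and Btg2, an antiproliferative gene, by 0.50. Among the others that rose, named after their values were seen, Cdkn1a, the gene of p21, had 1.27, Gadd45a 0.73 and Ndrg2 0.55. Btg2, Cdkn1a and Gadd45a are also textbook targets of p53. In the model with the fibroblast score 3 of the list rose, where 1.32% of all genes were called higher. Cdkn1c fell in that model too (-1.26, edgeR adjusted p = 2.03e-05). The list also holds Thbs1 and Pdgfrb, which fibroblasts express and which had 1.84 and 1.47 without passing the test, and the part of fibroblast RNA in the list's median was not tested.

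The calls of the members can be read against the share of all genes called under each setting. DESeq2 called 9.47% of genes higher and 7.05% lower, and edgeR with no filter on low counts called 16.9%, made up of 9.02% higher and 7.92% lower. The test against a fold of 1.2 called 3.17%, 2.79% higher and 0.371% lower, and left Myc as the called member. The model with the fibroblast score called 1.32% higher and 0.884% lower, and the replicate block called 25.0%. Of the fits that left out a library, those in which Mxd1 lost its call called 17.4% without p57 KO replicate 2 (8.55% higher, 8.87% lower), 18.2% without p57 KO replicate 3 (9.71% higher, 8.52% lower), 18.5% without control replicate 2 (9.57% higher, 8.90% lower) and 15.6% without control replicate 3 (7.78% higher, 7.77% lower). Mxd1 kept its call without control replicate 1, where 8.12% were higher and 8.62% lower. It also kept its call without p57 KO replicate 1, where 26.7% of genes were called, 14.2% higher and 12.5% lower. The list counts given without p57 KO replicate 1 can be read against these shares.

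**Figure D5:**
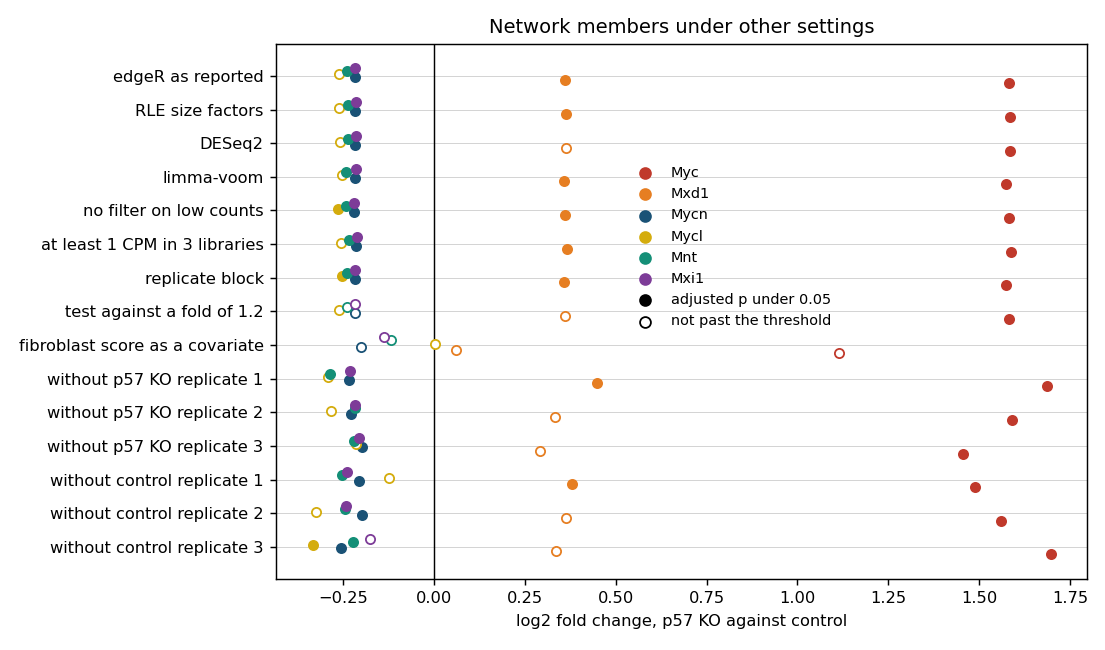
Log2 fold change, p57 KO against control (horizontal axis), of 6 network members under edgeR as reported and 14 other settings (rows); filled points have an adjusted p under 0.05 and open points do not. Myc lies between 1.46 and 1.70 in every row but that with the fibroblast score, where it is at 1.11, and Mycn between -0.26 and -0.20 in all rows.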

How the data were processed

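The series holds 6 RNA-seq libraries, 3 p57 KO and 3 control, read as single reads of 76 bp. The authors deposited whole-number read counts for each gene, without normalization. Named in the submitters' processing notes are HTSeq 2.0.2, HISAT2 2.2.1, cutadapt 3.4, bcl2fastq 2.20 and the build mm10. The sources used here give neither the annotation nor the strand setting. Among the named genes, exons of Cdkn1c, Cdk4, Stub1 and Tagln, for example, overlap those of another gene on the other strand. The overlap is 625, 641, 1084 and 1241 bases, in that order. Groups were taken from the sample titles. The network members and gene lists were chosen with earlier results of these data known.

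Counts were filtered with edgeR's filterByExpr, scaled by TMM and tested with edgeR 4.0.16 (limma 3.58.1, R 4.3.3), quasi-likelihood F-test, robust, group as the only term. Over 3 against 3 libraries an exact two-sided permutation test cannot go below p = 0.1 and was not used. Named genes are the members, Cdkn1c, up to 4 genes of smallest p per list, the 3 most like Myc and Mycn (log2 CPM with a prior count of 2) and their neighbours. Positions and exon lengths come from GENCODE mouse release 21, which holds 32235 of the 32285 gene IDs. The alternatives were RLE factors, DESeq2 1.42.0, limma-voom, no filter, a filter of 1 CPM in at least 3 libraries, a replicate block, leaving out each library, a test against a fold of 1.2, and a fibroblast score as a covariate. The test was tried on simulated data. Replicate pairs differed by more than sampling noise, with a chi-square per degree of freedom of 2.87 to 5.97 in p57 KO and 1.69 to 2.12 in control.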

Additional observations from a re-analysis of the deposited data

How the results depend on the processing

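The direction of Myc, Mycn, Mnt, Mxi1 and Mxd1 held in all 14 alternatives, and the call of Myc in 13. The number of members that rose, 2 with edgeR as reported, was 1 in DESeq2, 1 against a fold of 1.2 and 0 in edgeR's model with the fibroblast score, in which 1 had an unadjusted p under 0.05. It was 1 to 2 when a library was left out: 1 without p57 KO replicate 2 or 3 or control replicate 2 or 3, with Myc the gene that stayed. The number that fell, 3 as reported, was 0 against a fold of 1.2 and 0 in edgeR's model with the fibroblast score (at an unadjusted p under 0.05, 0 and 1), and 3 in DESeq2, in limma-voom and in every fit that left out a library. Without control replicate 3 the members that fell were Mycn, Mnt and Mycl, and Mxi1 was not called. The sign of Mycl turned to 0.0014 and that of Mga to 0.0087 with the fibroblast score as a covariate, neither past the test. Of all genes, 1725 rose and 1725 fell as reported. In DESeq2 1044 fell, and against a fold of 1.2, 414 rose and 55 fell. In the model with the fibroblast score 196 rose and 131 fell. The score takes a residual degree of freedom. It was also higher in every p57 KO library than in every control library, so score and group cannot be fully told apart. The cause of the changes between settings was not tested. The Myc share of the MYC family level in p57 KO was 4.67% without length in place of 5.75%. Same-numbered libraries had correlations of 0.191, 0.0250 and -0.102 between their deviations from the group means, so the numbers were not taken to pair the samples. With the replicate block 3706 genes were called, against 3450 without it, and among the members Mycl was then called too (-0.25, adjusted p = 0.0359). Myc rested on 26 to 113 reads per library and Pvt1 on 5 to 35, which limits how finely their folds are known.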
